A study of Mus musculus with 16 samples.

Results

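The comparison of bleomycin with saline in cells of the Acta2 lineage rests on 8 of the 16 mice of the series, all of the strain Acta2-CreERT2; tdTomatoflox (Acta2-tdT): 4 given saline and 4 given bleomycin. The mice were chosen by their strain and agent labels and not by any measured value. All 8 were male by the study's methods and 11 weeks of age, their lungs were taken 14 days after the agent, and all received food with tamoxifen at 400 mg/kg from day 5. The other 8 mice carried a Pdgfra-driven Cre and enter only 1 alternative fit here. Cre fused to a modified oestrogen receptor was under the Acta2 promoter, so that tamoxifen switched on the red protein tdTomato, and it stays on, in any cell in which that promoter was active while tamoxifen was present. Myofibroblasts, vascular and airway smooth muscle and some pericytes can all meet this condition, and since tamoxifen started after the agent in both groups, the labelled cells need not be the same kinds of cell with saline and with bleomycin. Red cells of the left lobe were sorted straight into lysis buffer, and libraries were made by SmartSeq2, which amplifies full-length copies of the transcripts. The saline mice are numbered 1 to 4 and the bleomycin mice 5 to 8, as in the labels, which do not say whether a sample came from 1 animal or from several.

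Alpha-smooth muscle actin, the product of Acta2, is a filament protein of contractile cells. Smooth muscle of vessels and airways expresses it for life together with smooth muscle myosin, calponin and desmin, while fibroblasts take it up during wound healing and are then called myofibroblasts. Bleomycin breaks DNA, and its delivery to the airways is a standard model of lung injury followed by scarring, in which myofibroblasts lay down fibrillar collagen and fibronectin under signals such as transforming growth factor beta (TGF-beta).

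Expression was deposited as FPKM, fragments scaled to the length of the gene and to all mapped fragments, for each mouse on its own. The summed FPKM of the nuclear protein-coding genes was 37941, 36688, 49556 and 60947 in saline mice 1 to 4 and 324743, 241916, 440520.0 and 466183 in bleomycin mice 5 to 8. The groups did not overlap, and the ratio of the medians was 8.75 (p = 0.0286 by two-sided exact permutation, and no smaller p can be had with 4 against 4). An FPKM of at least 1 was reached by 3644 to 5901 protein-coding genes with saline and by 10029 to 10748 with bleomycin (exact permutation test, p = 0.0286). Reads outside expressed genes were gauged by the 1412 olfactory and vomeronasal receptor genes, most of which lung cells do not use, although the gauge is not shown to hold for other genes. Their median FPKM was 0.327, 0.326, 0.329 and 0.321 in saline mice 1 to 4 and 0.0361, 0.120, 0.0448 and 0.0129 in bleomycin mice 5 to 8 (exact permutation test, p = 0.0286), highest among the bleomycin mice in mouse 6. Mitochondrial genes held 19.5% to 31.8% of all FPKM with saline and 25.1% to 49.6% with bleomycin (exact p = 0.23). The 10 largest genes held 27.5% to 37.0% of the protein-coding sum with saline and 14.4% to 17.4% with bleomycin (exact permutation test, p = 0.0286). The confidence bounds deposited with the FPKM imply about 1356770 to 2252680 fragments with saline and 4797470 to 8329510 with bleomycin (exact permutation test, p = 0.0286). How much of any result below these differences account for was not tested, and they coincide with the treatment, so the 2 cannot be told apart. In sorted cells measured in bulk, fewer cells of a type and less RNA per cell cannot be told apart either.

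**Figure D1:**
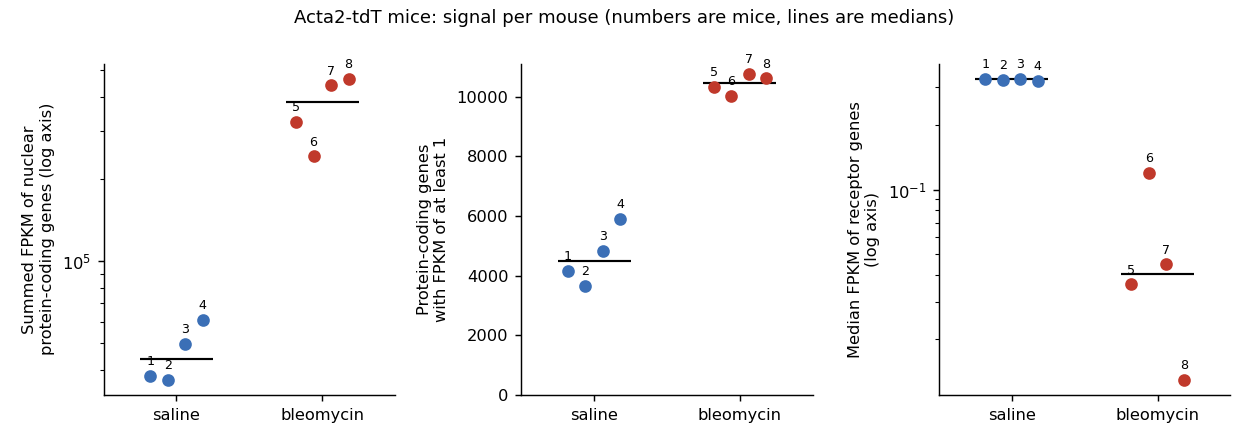
Each point is 1 Acta2-tdT mouse (saline 1 to 4 in blue, bleomycin 5 to 8 in red, numbered) and each line a group median; the panels show the summed FPKM of nuclear protein-coding genes (log axis), the number of protein-coding genes with an FPKM of at least 1, and the median FPKM of the receptor genes (log axis). The bleomycin mice lie above every saline mouse in the first 2 panels and below every saline mouse in the third.

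Because most tested genes rose with the sum, each gene was read on 2 scales, both as log2(FPKM + 1): the deposited FPKM, and FPKM scaled so that the nuclear protein-coding genes add up to the same total in each mouse, called scaled FPKM here. A fold change is the difference of the group means on that log2 scale, which understates changes of genes with few reads. Differences were tested with limma, with Benjamini-Hochberg adjustment over all genes tested and a threshold of 0.05. The p-values measure the spread between these samples, which may in part be technical. On the deposited FPKM, 8308 of 9265 protein-coding genes tested were higher with bleomycin (89.7%) and 432 were lower (4.66%), with a median log2 fold change of 2.201. On the scaled FPKM, 2909 were higher (31.4%) and 1543 were lower (16.7%), with a median of 0.29. Each gene higher on the scaled FPKM was also higher as deposited, so 2909 rose on both scales (31.4%), and 432 fell on both (4.66%). Of the 1543 genes that fell on the scaled FPKM, 663 were higher as deposited, so "rose" and "fell" below refer to the scaled FPKM unless another scale is named. Values per mouse are given in the order of mice 1 to 4 with saline and 5 to 8 with bleomycin. These shares are the background against which each gene group below is read. A gene was tested when it reached an FPKM of 1 in at least 4 mice. Of the 9265 genes 3221 reached it in no saline mouse, so they passed through the bleomycin mice and had to be higher as deposited. The filter also bears on the scaled FPKM: such genes made up 1144 of the 2909 that rose and 169 of the 1543 that fell. With no such requirement 9405 of 21204 genes were higher and 1724 lower on the deposited FPKM (median 0.47), and 2670 were higher and 6785 lower on the scaled FPKM (median -0.24).

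All 189 receptor genes that could be tested fell on the scaled FPKM. In 95% of all 1412 receptor genes the mean FPKM of the saline mice did not exceed 2.69. Of the 7449 tested protein-coding genes at or under that level 1170 fell (15.7%), and of the 1816 above it 373 fell (20.5%). The split between rises and falls moved with the scaling: 2161 rose and 1853 fell when the 50 largest genes were left out of the total, 4478 and 1090 when the receptor median was subtracted first, 5270 and 939 with quantile normalization, and 6132 and 832 with the total taken over all genes. The median log2 fold change over all genes was 0.11, 0.68, 0.81 and 1.02 with these scalings in turn.

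**Figure D2:**
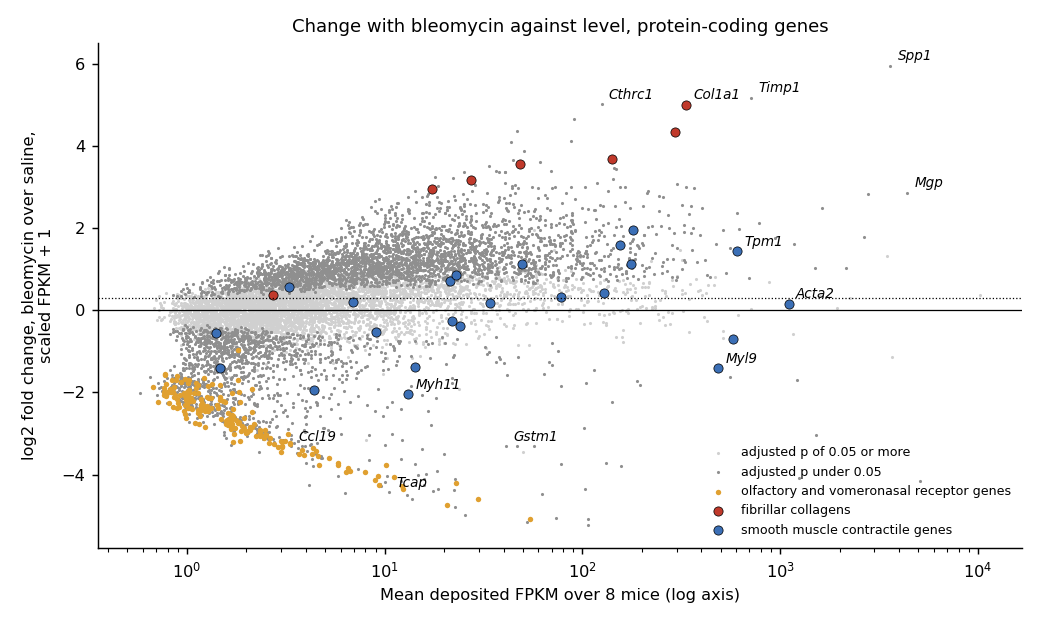
Each point is 1 of 9265 protein-coding genes, with its mean deposited FPKM over the 8 mice on the x axis (log axis) and its log2 fold change of scaled FPKM + 1, bleomycin over saline, on the y axis; the dotted line is the median of all genes. The bleomycin mice, with higher FPKM, weigh most in the x value, so the 2 axes are not independent. Of the fibrillar collagens (red) 6 of 7 lie near the upper edge, the smooth muscle contractile genes (blue) spread on both sides of 0, and the receptor genes (orange) lie along the lower edge.

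Of the contractile genes of smooth muscle, which check the lineage label, 23 of 27 reached the level needed for a test. Acta2 itself (chromosome 19, 34241090 to 34255336, build GRCm38) had a scaled FPKM of 467, 625, 657 and 654 with saline and 603, 645, 569.7 and 875 with bleomycin. The groups overlapped, and its log2 fold change was 0.16 ± 0.27 (SE, adjusted p = 0.63), while on the deposited FPKM it was 3.13. With the total over all genes it was 1.27 and with quantile normalization 1.53, both past the threshold, while without the 50 largest genes it was -0.11. Tagln, the actin-binding protein SM22, and Cnn1, the calponin of smooth muscle, did not pass the test either, with scaled log2 fold changes of -0.39 ± 0.24 (SE, adjusted p = 0.19) and 0.33 ± 0.40 (SE, adjusted p = 0.5). Tagln passed as a fall without the 50 largest genes (-0.64, adjusted p = 0.048) and was 0.65 with the total over all genes, with which Cnn1 passed as a rise (1.41, adjusted p = 0.023).

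The list around Acta2 split. Of 23 tested contractile genes 7 rose and 7 fell, which is 30.4% in each direction, beside 31.4% higher and 16.7% lower over all genes. The share that rose is thus near that of all genes. The median scaled log2 fold change was 0.18, against 0.29 over all genes. For the list it was 0.041 without saline mouse 1 and turned to -0.076 without the 50 largest genes in the total. On the deposited FPKM 20 rose and 0 fell. The list as a whole took 1.497% to 2.09% of the protein-coding FPKM with saline and 1.58% to 2.19% with bleomycin.

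Proteins of the intermediate and actin filaments were among those that rose. Desmin (Des), the intermediate filament of muscle, had a scaled FPKM of 25.95, 28.5, 28.0 and 33.7 with saline and 90.3, 105, 113 and 159 with bleomycin. The log2 fold change was 1.94 ± 0.27 (SE, adjusted p = 2.0e-04). Each bleomycin mouse was above each saline mouse. Tropomyosin 1 (Tpm1), which lies along actin filaments, went from 137, 153, 135 and 148 to 406, 336, 387 and 440.0, with a log2 fold change of 1.44 ± 0.24 (SE, adjusted p = 6.8e-04), again without overlap. Calponin 2 (Cnn2) rose by 1.59 ± 0.28 (SE, adjusted p = 0.001), and its groups did not overlap. The LIM protein Csrp1 (1.14 ± 0.33 SE, adjusted p = 0.016) and the gamma actin of smooth muscle Actg2 (1.12 ± 0.32 SE, adjusted p = 0.014) rose by less. Csrp1 overlapped between the groups, and both lost their call without bleomycin mouse 8. Without that mouse 3 contractile genes rose and 5 fell.

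Parts of the smooth muscle myosin motor and its partners were among those that fell. The smooth muscle myosin heavy chain (Myh11) had a scaled FPKM of 24.5, 27.0, 29.8 and 27.5 with saline and 5.64, 8.20, 4.26 and 5.65 with bleomycin. Every bleomycin mouse was below every saline mouse, with a log2 fold change of -2.05 ± 0.24 (SE, adjusted p = 7.8e-05), while its deposited FPKM was 7.31, 7.80, 11.6 and 13.2 with saline and 14.4, 15.6, 14.8 and 20.7 with bleomycin. On that scale the change was 0.69 ± 0.33 (SE, adjusted p = 0.069). The regulatory light chain Myl9 had a scaled FPKM of 523, 532, 761 and 769 with saline and 192, 231, 217 and 334 with bleomycin, again without overlap, and a log2 fold change of -1.41 ± 0.29 (SE, adjusted p = 0.0027). Lmod1, which nucleates actin filaments in smooth muscle, fell by 1.94 on the log2 scale (adjusted p = 3.8e-04). Tropomyosin 2 (Tpm2) fell by 0.71 (adjusted p = 0.043). The falls of Myl9 and Tpm2 depended on the scaling: with the total over all genes they were -0.30 and 0.40, and with quantile normalization -0.19 and 0.59, none of them a fall past the threshold. In 1 fit over all 16 mice, whose spread includes that of the Pdgfra-tdT mice, 1 contractile gene rose and 5 fell, and Tpm1, Cnn2, Csrp1, Actg2, Myl9 and Tpm2 did not pass.

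**Figure D3:**
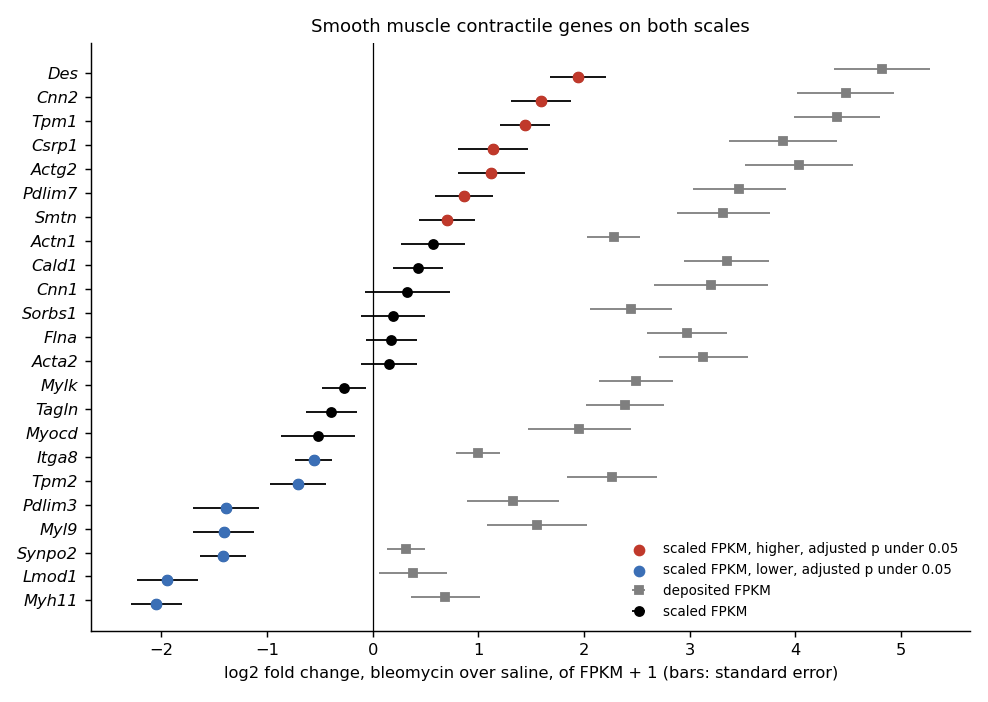
The 23 tested contractile genes are ordered by their log2 fold change, bleomycin over saline, of FPKM + 1 (x axis) on the scaled FPKM (circles) and on the deposited FPKM (grey squares), with standard errors as bars; red and blue mark genes past the threshold on the scaled FPKM. On the scaled FPKM 7 are higher and 7 lower, from -2.05 for Myh11 to 1.94 for Des, and all 23 squares of the deposited FPKM lie to the right of 0, between 0.31 and 4.82.

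Sequences before the start of 3 contractile genes and of Timp1 are shown because many contractile genes carry a CArG box (CC, then 6 letters of A or T, then GG), the site of serum response factor, and because TEAD factors, which bind GGAATG, are known from smooth muscle and matrix genes. They are the 250 bases before the start in RefSeq, build GRCm38.p6, written 5′ to 3′ on the strand of the gene, with the match in capitals. Myl9, which fell, and Cnn2, which rose, are the contractile genes with an exact CArG match. Only exact matches were sought and marked. The Acta2 stretch below also holds near matches to the CArG letters (ccctatatgg and ccttgtttgg), which were not counted.
Myl9, chr2:156775214-156775463, forward strand: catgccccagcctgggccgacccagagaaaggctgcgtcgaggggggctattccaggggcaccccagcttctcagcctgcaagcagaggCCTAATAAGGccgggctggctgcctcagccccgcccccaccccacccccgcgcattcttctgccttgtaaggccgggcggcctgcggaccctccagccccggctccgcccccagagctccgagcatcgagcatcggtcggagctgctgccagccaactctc
Cnn2, chr10:79988350-79988599, forward strand: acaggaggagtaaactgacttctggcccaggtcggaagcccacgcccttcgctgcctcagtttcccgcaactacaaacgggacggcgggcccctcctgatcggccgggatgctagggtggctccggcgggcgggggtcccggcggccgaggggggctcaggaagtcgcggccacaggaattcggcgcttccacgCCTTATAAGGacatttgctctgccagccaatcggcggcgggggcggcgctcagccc
Acta2 and Timp1, a matrix gene described below, each hold a TEAD match.
Acta2, chr19:34255374-34255623, reverse strand: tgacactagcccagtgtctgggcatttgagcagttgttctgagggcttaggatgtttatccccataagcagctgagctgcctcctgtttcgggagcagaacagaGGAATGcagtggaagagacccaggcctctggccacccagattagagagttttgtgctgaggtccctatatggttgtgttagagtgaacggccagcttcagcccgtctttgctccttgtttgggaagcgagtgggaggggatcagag
Timp1, chrX:20869916-20870165, forward strand: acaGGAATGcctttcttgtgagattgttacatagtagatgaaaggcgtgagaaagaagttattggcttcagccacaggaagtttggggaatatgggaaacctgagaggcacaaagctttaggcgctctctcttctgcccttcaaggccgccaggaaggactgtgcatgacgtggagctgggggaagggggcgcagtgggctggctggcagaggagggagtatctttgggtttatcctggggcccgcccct

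Promoters were found for 18 of the 23 tested contractile genes, 20 sequences in all. On either strand the CArG letters occurred in 2 of them, the AP-1 letters TGANTCA in 2 and the TEAD letters in 8. Over all 32851 promoters of the table the shares were 1.47%, 6.75% and 12.6%. Among the 12 largest rises 6 genes had a promoter, 8 sequences, of which 0, 1 and 2 held these letters. Matches to different motifs may overlap and were counted separately. A match is a description of letters and not a bound site, and the missing matches say nothing about other positions.

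Genes of the vessel wall that are known from pericytes fell for the most part. Of 13 tested pericyte markers 2 rose and 8 fell, against 16.7% lower over all genes, and the median scaled log2 fold change was -1.33. It was -0.61 with the total over all genes, where 3 rose and 6 fell, and -0.53 over the 6 members with a mean FPKM of at least 5, of which 2 rose and 2 fell. As deposited, 6 were higher and 1 was lower. The lung isoform of cytochrome oxidase subunit 4 (Cox4i2) had a deposited FPKM of 7.46, 10.1, 13.2 and 17.0 with saline and 3.56, 6.04, 4.18 and 4.69 with bleomycin. No bleomycin mouse reached the lowest saline mouse, and it fell on both scales, by 1.17 on the deposited log2 scale and by 3.64 (SE 0.27, adjusted p = 1.9e-05) on the scaled one. Higd1b, a mitochondrial membrane protein used as a pericyte marker, had a deposited FPKM of 15.9, 14.9, 13.3 and 10.5 with saline and 19.8, 6.73, 3.54 and 13.5 with bleomycin and overlapped there, with a scaled log2 fold change of -3.15 ± 0.46 (SE, adjusted p = 3.3e-04). The receptor Pdgfrb, which recruits mural cells to vessels, had a scaled FPKM of 11.8, 12.5, 10.3 and 10.4 with saline and 11.4, 7.47, 9.86 and 10.3 with bleomycin. The groups overlapped, and the log2 fold change was -0.20 ± 0.22 (SE, adjusted p = 0.46), which turned positive with 3 other scalings and with the total over all genes was a rise past the threshold (0.82, adjusted p = 0.022).

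Postn, the matrix protein periostin, was listed with the pericyte genes but is also made by injured fibroblasts. Its scaled FPKM was 18.2, 22.3, 18.9 and 14.2 with saline and 144, 133, 124 and 173 with bleomycin, a rise of 2.90 ± 0.25 (SE, adjusted p = 2.3e-05) and the largest of that list. Channels and receptors through which vascular smooth muscle is controlled gave 0 rises and 8 falls in 14 tested, with a median of -0.92, and 4 rises and 5 falls with the total over all genes (median -0.081). As deposited, 10 of them were higher and 0 lower. Gucy1a3, a subunit of the receptor for nitric oxide and also a pericyte marker, had a scaled FPKM of 12.8, 11.5, 15.8 and 16.1 with saline and 1.96, 3.37, 0.540 and 0.926 with bleomycin. Its log2 fold change was -2.58 ± 0.33 (SE, adjusted p = 1.4e-04). The endothelin receptor Ednra changed by -1.503 ± 0.26 (SE, adjusted p = 8.8e-04), but was higher by 1.03 ± 0.41 (SE, adjusted p = 0.036) as deposited, and with the total over all genes this was -0.56 (adjusted p = 0.16). Some receptor genes reach the levels of both genes in the saline mice too.

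Genes of the scar matrix rose furthest beyond the general rise. Of 7 tested fibrillar collagen genes 6 rose and 0 fell, with a median scaled log2 fold change of 3.56, against 31.4% higher and 0.29 over all genes. The pro-alpha 1 chain of type I collagen (Col1a1) had a deposited FPKM of 2.06, 1.76, 1.86 and 2.44 with saline and 499, 275, 906 and 1002 with bleomycin, and a scaled FPKM of 6.88, 6.10, 4.78 and 5.09 with saline and 195, 144, 261 and 273 with bleomycin. Its scaled log2 fold change was 5.00 ± 0.28 (SE, adjusted p = 7.1e-06), a 31.9-fold rise of FPKM + 1. The partner chain Col1a2 rose by 4.33 ± 0.24 (SE, adjusted p = 7.0e-06). Type III collagen (Col3a1) had a scaled FPKM of 7.57, 6.36, 4.38 and 5.31 with saline and 71.4, 59.3, 91.6 and 137 with bleomycin. Col3a1 rose by 3.67 ± 0.31 (SE, adjusted p = 2.2e-05), and Col5a2, a chain of type V collagen that sets fibril width, rose by 3.56 ± 0.26 (SE, adjusted p = 1.7e-05). In each of these the bleomycin mice lay above all saline mice. The list took 0.0178% to 0.0237% of the protein-coding FPKM with saline and 0.324% to 0.565% with bleomycin.

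Fibronectin and the matricellular proteins, which tie cells to collagen, followed the same course. 16 of 18 tested members rose and 0 fell, with a median of 2.88. Fibronectin (Fn1) had a scaled FPKM of 1.43, 1.65, 1.58 and 1.12 with saline and 75.5, 47.7, 56.8 and 66.5 with bleomycin. Its log2 fold change was 4.66 ± 0.23 (SE, adjusted p = 4.4e-06). Cthrc1, a secreted protein known from activated fibroblasts, had 1.98, 2.50, 0.552 and 1.71 with saline and 84.0, 86.4, 51.3 and 120.4 with bleomycin. Cthrc1 rose by 5.01 ± 0.35 (SE, adjusted p = 1.6e-05). The groups were far apart in both, but their deposited FPKM was under 1 in each saline mouse, as was that of Fbln2 below. Such genes were tested only through the bleomycin mice. Osteopontin (Spp1), which macrophages also make, changed most of all genes named here, by 5.95 ± 0.30 (SE, adjusted p = 4.8e-06). Fibulin 2 (Fbln2) rose by 3.87, and the abundant Mgp and Sparc, which bind mineral and collagen, rose by 2.86 and 2.83. This list took 0.607% to 0.709% of the protein-coding FPKM with saline and 4.63% to 7.55% with bleomycin.

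In the basement membrane 10 of 13 tested genes rose and 1 fell (median 1.41), but over all 22 members, with the 9 that were not tested, the median was 0.16. Among those that rose was the type IV collagen chain Col4a2, by 2.25 ± 0.32 (SE, adjusted p = 2.9e-04). Of the small proteoglycans and elastic fibre genes 13 of 18 rose and 1 fell (median 2.31). The proteoglycans Bgn and Dcn, which coat collagen fibrils, rose by 2.76 ± 0.30 (SE, adjusted p = 4.6e-05) and 1.57 ± 0.32 (SE, adjusted p = 0.0025), and the microfibril protein Mfap5 by 3.11 ± 0.28 (SE, adjusted p = 2.4e-05). Dcn did not pass in the fit over all 16 mice (adjusted p = 0.22). The related proteoglycan Ogn went the other way, with a scaled FPKM of 29.99, 34.5, 50.8 and 33.5 with saline and 6.23, 18.8, 7.26 and 11.7 with bleomycin. Ogn changed by -1.76 ± 0.36 (SE, adjusted p = 0.0024), though it was higher as deposited (1.05), and the scaled change was -0.71 (adjusted p = 0.13) with the total over all genes.

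The enzymes that fold, trim and cross-link collagen rose as well. Of 22 tested 19 rose and 1 fell, with a median scaled log2 fold change of 1.75. P4hb, a subunit of prolyl 4-hydroxylase, had a scaled FPKM of 16.7, 16.3, 18.4 and 22.9 with saline and 148, 109, 139 and 163 with bleomycin. P4hb rose by 2.84 ± 0.25 (SE, adjusted p = 2.4e-05). The procollagen chaperone Fkbp10 rose by 3.39 ± 0.30 (SE, adjusted p = 2.3e-05). Pcolce, which speeds the removal of the procollagen end, had a scaled FPKM of 12.7, 11.9, 8.03 and 13.2 with saline and 82.8, 78.8, 105 and 134 with bleomycin. Pcolce rose by 3.01 ± 0.28 (SE, adjusted p = 2.6e-05). Its paralog Pcolce2 had 11.6, 10.6, 11.0 and 11.7 with saline and 2.45, 2.41, 2.92 and 3.70 with bleomycin. Pcolce2 changed by -1.67 ± 0.20 (SE, adjusted p = 8.8e-05). On the scaled FPKM neither gene had overlapping groups, and they moved in opposite directions, while as deposited both were higher, Pcolce by 5.77 ± 0.45 (SE, adjusted p = 1.1e-05) and Pcolce2 by 0.84 ± 0.36 (SE, adjusted p = 0.047).

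Among matrix proteases and their inhibitors 14 of 19 tested members rose and 2 fell, with a median of 1.27. The metalloprotease inhibitor Timp1 had a deposited FPKM of 3.27, 5.10, 4.398 and 4.94 with saline and 1608, 811, 1203 and 2060.5 with bleomycin. Timp1 rose by 5.17 ± 0.30 (SE, adjusted p = 7.8e-06) on the scaled FPKM. Protease nexin (Serpine2), an inhibitor of thrombin and plasminogen activators, rose by 3.07 ± 0.28 (SE, adjusted p = 2.4e-05). The inhibitor Timp4 went from a scaled FPKM of 4.41, 1.57, 9.17 and 17.8 to 1.28, 0.884, 0.313 and 0.809, a change of -2.01 ± 0.54 (SE, adjusted p = 0.011), and its saline mice varied widely among themselves.

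**Figure D4:**
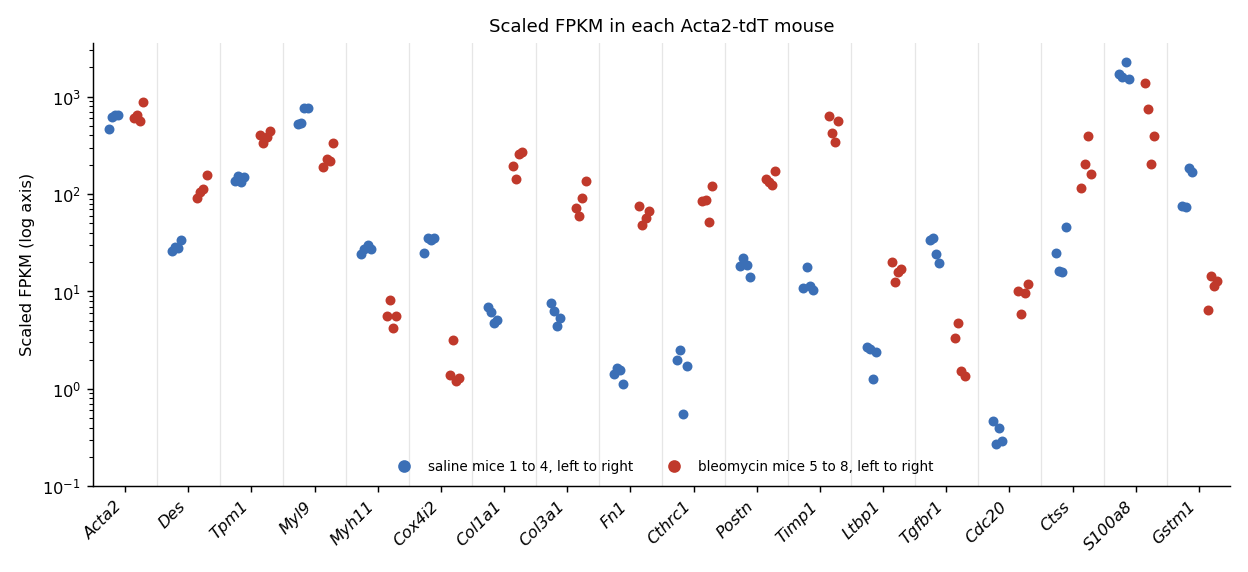
Scaled FPKM (y axis, log axis) of 18 genes in each mouse, saline mice 1 to 4 in blue and bleomycin mice 5 to 8 in red, in the order of their numbers within each gene. Acta2 overlaps between the groups, the matrix genes Col1a1 to Timp1 lie higher in all bleomycin mice, and Myl9, Myh11, Cox4i2, Tgfbr1, S100a8 and Gstm1 lie lower in all of them.

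Of the TGF-beta ligands, receptors and targets 10 of 21 tested rose and 2 fell, with a median of 0.59. Ltbp1, which holds latent TGF-beta in the matrix, had a scaled FPKM of 2.66, 2.54, 1.27 and 2.39 with saline and 19.9, 12.6, 15.8 and 17.0 with bleomycin. Ltbp1 rose by 2.44 ± 0.24 (SE, adjusted p = 3.4e-05). The target Ctgf rose by 1.92 ± 0.38 (SE, adjusted p = 0.0022). Tgfbr1, the type I receptor, changed by -3.04 ± 0.35 (SE, adjusted p = 7.1e-05), but its deposited FPKM was 10.2, 10.2, 9.37 and 9.47 with saline and 8.42, 9.05, 5.23 and 4.97 with bleomycin. These were nearly constant over the 4 saline mice, as the receptor median was, and the deposited change was -0.49 ± 0.30 (SE, adjusted p = 0.15).

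Among growth factors, their receptors and binding proteins 9 of 27 tested rose and 2 fell, with a median of 0.28. The share that rose, 33.3%, and the median are close to the 31.4% and 0.29 of all genes. Igfbp2, a binding protein of insulin-like growth factors, had a scaled FPKM of 0.477, 0.957, 0.449 and 0.634 with saline and 37.1, 31.0, 26.5 and 35.1 with bleomycin. Igfbp2 rose by 4.36 ± 0.21 (SE, adjusted p = 4.4e-06). As deposited, both Igfbp2 and Pdgfra were under 1 in each saline mouse, so they were tested only through the bleomycin mice. The more abundant Igfbp7 rose by 1.75 ± 0.28 (SE, adjusted p = 5.7e-04), and did not pass in the fit over all 16 mice (adjusted p = 0.10). Pdgfra, the receptor that marks the other lineage of the study, had a scaled FPKM of 0.913, 1.95, 0.847 and 0.790 with saline and 3.13, 1.31, 2.62 and 3.24 with bleomycin. The groups overlapped, and its change of 0.74 ± 0.26 (SE, adjusted p = 0.033) lost the threshold when any of 6 mice was left out, the exceptions being saline mouse 2 and bleomycin mouse 6.

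In the Notch, Wnt and BMP pathways 11 of 30 tested genes rose and 7 fell, with a median of 0.21. The share that rose, 36.7%, is close to that of all genes. The median was 0.090 to 0.14 without saline mouse 1 or 2 or bleomycin mouse 5 or 6, 0.11 with sample quality weights, 0.045 without the 50 largest genes, 0.86 with the total over all genes and 1.52 over the 12 members with a mean FPKM of at least 5. The largest rise was that of Sfrp1, a secreted antagonist that binds Wnt proteins. It had a scaled FPKM of 1.48, 0.903, 0.350 and 0.574 with saline and 11.7, 10.3, 11.7 and 11.0 with bleomycin. Sfrp1 rose by 2.77 ± 0.23 (SE, adjusted p = 2.2e-05), with a deposited FPKM under 1 in each saline mouse. The ligand Wnt4 had a deposited FPKM of 1.15, 1.08, 1.01 and 1.44 with saline and 1.16, 0.912, 0.343 and 0.218 with bleomycin, a scaled change of -1.76 ± 0.19 (SE, adjusted p = 4.3e-05) at levels that receptor genes also reach.

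Genes for making and folding protein are mostly abundant, and are read here also against the 4287 genes with a mean deposited FPKM of at least 5 over the 8 mice, of which 51.5% rose, with a median of 0.81. That mean is itself higher in genes that rose. In the unfolded protein response and among the chaperones of the endoplasmic reticulum 17 of 25 rose and 1 fell (median 1.28). The chaperone Hspa5 (BiP) had a scaled FPKM of 11.1, 14.6, 14.4 and 14.4 with saline and 79.9, 68.6, 92.1 and 93.8 with bleomycin. Hspa5 rose by 2.53 ± 0.24 (SE, adjusted p = 2.7e-05), and the disulfide isomerase Pdia6 rose by 2.99 ± 0.30 (SE, adjusted p = 3.4e-05). Of the translation factors 39 of 59 rose and 3 fell (median 0.86), among them Eif5a, which helps the ribosome past slow peptide bonds and rose by 2.54 ± 0.32 (SE, adjusted p = 1.1e-04). For the cytosolic ribosomal proteins 44 of 80 rose and 0 fell (median 0.83), or 55.0%, close to that share, with Rps2 at 2.04 ± 0.27 (SE, adjusted p = 1.8e-04). The count of ribosomal protein genes was 29 without saline mouse 1 and 27 without bleomycin mouse 5 or 8, and 1 translation factor fell without saline mouse 3 or 4 or any 1 bleomycin mouse. In the fit over all 16 mice 2 ribosomal protein genes rose, with 16 rises among translation factors and 9 in the unfolded protein response.

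Most genes of protein breakdown and glycolysis rose too. Among proteasome subunits 30 of 38 rose and 1 fell (median 1.17), among lysosomal proteases and hydrolases 24 of 27 rose and 0 fell (median 1.69), and among glycolytic enzymes 11 of 17 rose and 1 fell (median 1.23). Lactate dehydrogenase A (Ldha) had a scaled FPKM of 29.95, 28.5, 30.5 and 53.9 with saline and 231, 173, 205 and 237 with bleomycin. Ldha rose by 2.57 ± 0.29 (SE, adjusted p = 6.3e-05). Oxidative phosphorylation subunits encoded in the nucleus had a median below that of the abundant genes, and 31 of 78 rose and 3 fell (median 0.50), with 20, 19 and 18 rises without bleomycin mouse 5, 7 and 8. In the fit over all 16 mice 8 proteasome subunits and 1 oxidative phosphorylation subunit rose. For cholesterol synthesis 14 of 18 rose and 1 fell (median 0.94), with farnesyl diphosphate synthase (Fdps) at 2.51 ± 0.30 (SE, adjusted p = 9.6e-05).

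Among antioxidant genes 16 of 28 rose and 1 fell (median 0.995). The member that fell, the glutathione transferase Gstm1, had a deposited FPKM of 22.7, 21.5, 72.0 and 81.8 with saline and 16.5, 27.5, 39.2 and 47.4 with bleomycin, with overlapping groups. Its scaled FPKM did not overlap, and the change was -3.30 ± 0.40 (SE, adjusted p = 9.9e-05). Gstm1 belongs to a family of similar neighbouring genes, between which short reads can be split.

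Most cell cycle genes rose. Of the list, 34 of 43 tested members rose, 0 fell and 9 did not pass the test, with a median of 1.18. As deposited 0 of them were lower, which the filter fixed in advance for members under 1 in each saline mouse. Cdc20, which activates the anaphase-promoting complex, had a deposited FPKM of 0.141, 0.0791, 0.156 and 0.140 with saline and 25.7, 11.1, 33.4 and 43.4 with bleomycin, under 1 in each saline mouse. It rose by 2.89 ± 0.23 (SE, adjusted p = 2.2e-05) on the scaled FPKM, and the histone variant H2afz rose by 2.07 ± 0.33 (SE, adjusted p = 5.3e-04). The replication histone Hist1h2ap was among the 12 largest rises (3.60 ± 0.61 SE, adjusted p = 7.9e-04), but near-identical copies make its own value uncertain.

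Among p53 targets, which DNA breaks induce, 9 of 22 rose and 2 fell (median 0.45). Phlda3, a p53 target that restrains Akt, had a scaled FPKM of 4.93, 6.84, 7.72 and 7.40 with saline and 55.6, 45.8, 51.9 and 66.4 with bleomycin. Phlda3 rose by 2.86 ± 0.24 (SE, adjusted p = 2.2e-05). Immediate early genes moved in both directions, as genes at large did: 5 of 22 rose and 4 fell (median 0.41), which is 22.7% and 18.2% beside the 31.4% and 16.7% of all genes, with 2 falls without saline mouse 1 or 4 or bleomycin mouse 5, 7 or 8. Fosl1, an AP-1 subunit, had a scaled FPKM of 0.938, 0.743, 0.538 and 0.181 with saline and 4.17, 4.03, 4.27 and 3.67 with bleomycin. Fosl1 rose by 1.68 ± 0.19 (SE, adjusted p = 7.1e-05), with a deposited FPKM under 1 in each saline mouse. The related Fos had 85.8, 56.7, 69.6 and 135 with saline and 29.9, 69.4, 32.3 and 40.3 with bleomycin. The groups overlapped, and the change was -1.003 ± 0.37 (SE, adjusted p = 0.045). It was 1.91 as deposited and 0.088 with the total over all genes, and it lost the threshold when any of 6 mice was left out. Klf4, a transcription factor that represses contractile genes, changed by -1.29 ± 0.17 (SE, adjusted p = 1.8e-04) relative to the total, while its deposited FPKM rose by 0.63 ± 0.25 (SE, adjusted p = 0.038). Clock genes showed 2 rises and 4 falls among 13 tested, with a median of -0.28 that was -0.45 without saline mouse 1 and turned positive with the total over all genes (0.28) and with quantile normalization (0.15). Bhlhe40, a repressor that also answers to hypoxia, rose by 1.74 ± 0.38 (SE, adjusted p = 0.0037).

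Genes of other cell types were measurable in the sorted cells. Of the macrophage markers 12 of 23 rose and 0 fell (median 1.27). They took 0.617% to 1.40% of the protein-coding FPKM with saline and 1.19% to 3.51% with bleomycin, most in mouse 7, and 0 of them were at 0 in all mice. Lysozyme (Lyz2) had a scaled FPKM of 226, 124, 286 and 363 with saline and 383, 1044, 1146 and 553 with bleomycin. The change was 1.61 ± 0.46 (SE, adjusted p = 0.015). The lysosomal protease Ctss had 25.1, 16.2, 15.7 and 46.5 with saline and 115, 202, 391.8 and 159 with bleomycin. The change was 3.01 ± 0.47 (SE, adjusted p = 4.7e-04). Both were highest in mouse 7, as was the complement subunit C1qb, whose groups overlapped (2.12 ± 0.55 SE, adjusted p = 0.0091). Of the defining markers, Cd68 had a scaled FPKM of 6.99, 4.13, 12.3 and 23.1 with saline and 18.7, 64.3, 107 and 41.2 with bleomycin. Csf1r had 4.54, 2.31, 4.81 and 11.9 with saline and 9.98, 24.4, 32.0 and 13.5 with bleomycin, and Adgre1 had 1.21, 0.994, 2.102 and 2.47 with saline and 1.01, 3.61, 5.62 and 2.23 with bleomycin. The groups overlapped in all 3, and the change of Adgre1 did not pass (0.52 ± 0.37 SE, adjusted p = 0.26). Without mouse 7 the macrophage list had a median of 0.98 and 10 rises. In the fit over all 16 mice 7 rose, and Lyz2 did not pass (adjusted p = 0.054). Macrophages also make Spp1, Ctss and other lysosomal proteases, and the part of macrophage RNA in the rises of those genes was not tested.

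Complement genes gave 6 rises and 1 fall in 16 tested (median 0.47), and MHC class II genes 2 and 1 in 7 (median 0.62, or 0.99 without saline mouse 4 and 0.37 without bleomycin mouse 7). The shares that rose, 37.5% and 28.6%, are close to the 31.4% of all genes. Of the chemokines and cytokines 11 of 23 rose and 4 fell (median 0.35). That median was 0.16 without saline mouse 2 and 0.55 to 0.59 without saline mouse 3 or bleomycin mouse 5 or 8. The monocyte attractants Ccl7 and Ccl8 rose by 3.65 ± 0.39 (SE, adjusted p = 4.7e-05) and 3.43 ± 0.55 (SE, adjusted p = 5.8e-04), with scaled FPKM of 24.5, 27.6, 37.5 and 30.1 and of 46.2, 212, 140.4 and 46.0 in bleomycin mice 5 to 8 and at most 4.10 and 14.1 in any saline mouse. Ccl19, which draws lymphocytes, fell on both scales: its deposited FPKM was 4.10, 3.72, 6.70 and 6.35 with saline and 0.875, 2.09, 0.572 and 2.63 with bleomycin, and the scaled change was -3.30 ± 0.24 (SE, adjusted p = 1.7e-05). Interferon-stimulated genes gave 3 rises and 1 fall in 18 tested, or 5 rises without bleomycin mouse 8, with a median of 0.27 beside the 0.29 of all genes. The median was 0.17 without bleomycin mouse 6 and 0.40 without mouse 8.

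Some neutrophil genes fell. Of 13 tested 0 rose and 5 fell (median -0.96), or 3 without saline mouse 3 or bleomycin mouse 7 or 8. The median was -1.45 without saline mouse 2, -0.54 without saline mouse 3 and -0.57 without bleomycin mouse 7. The list took 2.04% to 3.16% of the protein-coding FPKM with saline and 0.283% to 1.82% with bleomycin. As deposited, 10 of the 13 were higher and 0 lower. S100a8, a calcium-binding protein abundant in neutrophils, had a scaled FPKM of 1704, 1594, 2287 and 1513 with saline and 1397, 745, 202 and 391 with bleomycin. On this scale every saline mouse was above every bleomycin mouse, with a change of -1.71 ± 0.54 (SE, adjusted p = 0.023), while as deposited S100a8 was higher with bleomycin by 1.27 ± 0.49 (SE, adjusted p = 0.033). S100a8 did not pass in the fit over all 16 mice (adjusted p = 0.082). Retnlg changed by -1.71 ± 0.48 (SE, adjusted p = 0.013), and by 1.24 ± 0.52 (SE, adjusted p = 0.043) as deposited. Neither passed with the total over all genes (-0.597 and -0.611) or with quantile normalization (-0.359 and -0.851), and 0 neutrophil genes fell with the total over all genes. Lymphocyte genes were few: 6 of 20 could be tested, of which 0 rose and 3 fell, and the T cell gene Cd3e reached at most 0.585 FPKM in any mouse.

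Endothelial markers gave 1 rise and 6 falls in 14 tested (median -0.61, or 0.13 with the total over all genes). There were 0 rises without saline mouse 2 or 3 or bleomycin mouse 5, 7 or 8, and 2 without saline mouse 1. In the fit over all 16 mice 1 fell and 0 rose. As deposited, 11 were higher and 0 lower. They took 0.0668% to 0.0801% of the protein-coding FPKM with saline and 0.0320% to 0.0478% with bleomycin. The endothelin receptor Ednrb changed by -2.06 ± 0.31 (SE, adjusted p = 3.7e-04) on the scaled FPKM and by -0.01 ± 0.37 (SE, adjusted p = 0.97) on the deposited FPKM. The defining marker Pecam1 had a scaled FPKM of 1.26, 0.870, 1.92 and 1.36 with saline and 1.999, 1.22, 0.992 and 0.794 with bleomycin, and the groups overlapped (-0.07 ± 0.21 SE, adjusted p = 0.78). Of 13 tested alveolar epithelial markers 3 rose and 0 fell (median 0.62, or 0.30 without bleomycin mouse 6, 0.038 over all 23 members and 1.24 over the 6 with a mean FPKM of at least 5), and 5 rose without bleomycin mouse 5. Podoplanin (Pdpn), which fibroblasts also express, rose by 2.16 ± 0.30 (SE, adjusted p = 2.5e-04). Surfactant protein C (Sftpc) had a deposited FPKM of 2.89, 0.615, 15.5 and 7.01 with saline and 12.2, 221, 19.9 and 169.9 with bleomycin, high in bleomycin mice 6 and 8 and overlapping between the groups (0.83 ± 1.08 SE, adjusted p = 0.53).

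Airway epithelial markers had 0 rises and 1 fall in 6 tested (median -0.05), mesothelial markers 2 rises in 3 (median 0.87), and haemoglobin and red cell genes 0 rises in 4 (median 0.21). The airway median was 0.49 with 2 rises without saline mouse 3 and 0.31 without bleomycin mouse 7, and the haemoglobin median was -0.32 without saline mouse 2 and 0.37 and 0.52 without saline mouse 3 and 4. Without any 1 of the other mice, except bleomycin mouse 8, the airway median lay between -0.34 and -0.17. The ciliated cell gene Foxj1 was at 0 in 6 of the 8 mice. The mesothelial gene Msln, which was not tested, had a deposited FPKM of 0.330, 0.0432, 0.165 and 0.699 with saline and 0.124, 14.0, 18.1 and 18.7 with bleomycin, so that mouse 5 was like the saline mice and the other 3 bleomycin mice were not. Alveolar fibroblast and lipofibroblast markers moved apart, with 5 rises and 3 falls in 11 tested (median 0.35, or 0.22 without saline mouse 4), and 3 rises without saline mouse 1 or 4 or bleomycin mouse 5, 7 or 8. The lipase Lpl, which macrophages also make, rose by 2.79 ± 0.32 (SE, adjusted p = 6.9e-05), and Inmt, a methyltransferase of resident lung fibroblasts, had a scaled FPKM of 24.7, 58.6, 27.4 and 74.0 with saline and 1.66, 11.9, 4.20 and 6.99 with bleomycin. Inmt changed by -2.79 ± 0.54 (SE, adjusted p = 0.0017). For adventitial fibroblast markers 5 of 10 rose and 0 fell (median 0.87).

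Members that did not reach an FPKM of 1 in 4 mice were not tested, and with them some medians moved by more than 1.5 times. Over all members in the table the median was 0.77 for macrophage markers, 0.72 for glycolysis, 0.41 for adventitial fibroblast markers, 0.39 for MHC class II genes, 0.19 for complement, 0.16 for chemokines and cytokines, 0.045 for growth factors and their receptors and 0.039 for interferon-stimulated genes. It was -0.049 for mesothelial markers, -0.17 for Notch, Wnt and BMP genes, -0.24 for alveolar fibroblast markers, -0.27 for contractile genes, -0.29 for haemoglobin and red cell genes, -0.35 for airway epithelial markers, -0.43 for clock genes and -0.71 for lymphocyte genes, where the median over all 21204 genes was -0.24. Over members with a mean FPKM of at least 5, where the median over all genes was 0.81, it was 1.997 for matrix proteases and inhibitors, 1.45 for growth factors and their receptors, 1.38 for TGF-beta genes, 1.37 for chemokines and cytokines, 1.10 for complement, 0.88 for p53 targets, 0.83 for alveolar fibroblast markers, 0.55 for clock genes and 0.12 for interferon-stimulated genes. The medians of fibrillar collagens, matricellular genes, small proteoglycans and elastic fibre genes, collagen-modifying enzymes, lysosomal proteases and cell cycle genes stayed within 1.5 times under both choices.

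**Figure D5:**
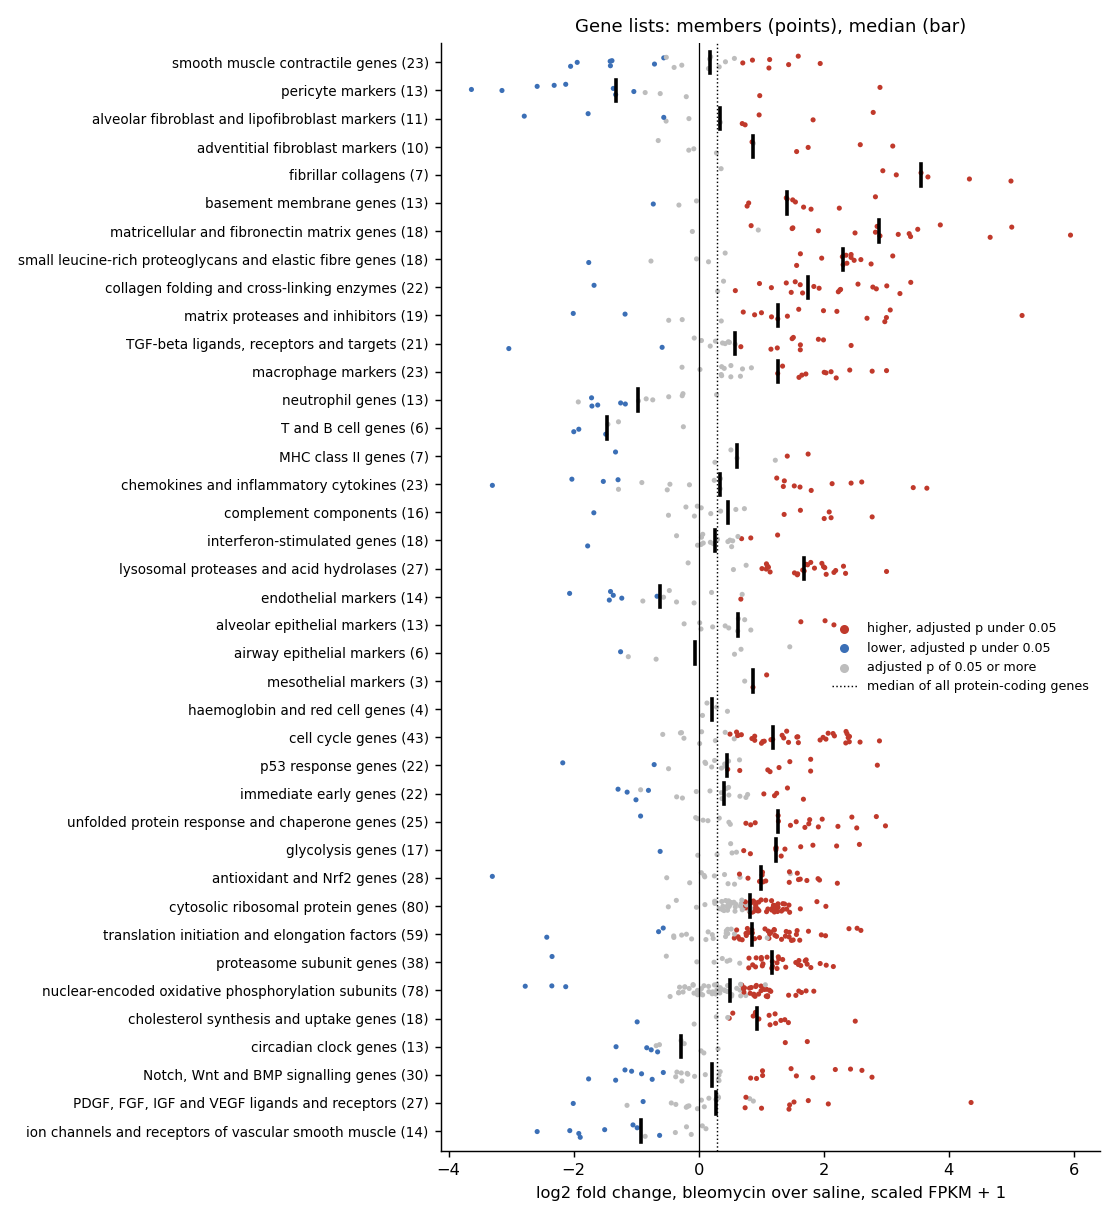
Each point is a tested member of 1 of 39 gene lists (members tested in brackets), at its log2 fold change of scaled FPKM + 1, bleomycin over saline (x axis); red and blue mark rises and falls past the threshold, black bars the list medians and the dotted line the median of all protein-coding genes. Fibrillar collagens (3.56) and matricellular genes (2.88) lie farthest to the right, and lymphocyte genes (-1.47) and pericyte markers (-1.33) farthest to the left.

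Of the 12 largest rises that the naming rule gave, 8 belonged to the matrix lists (Spp1, Timp1, Cthrc1, Col1a1, Fn1, Col1a2, Fbln2 and Col3a1), and Igfbp2, Ccl7 and Hist1h2ap were among the others. Among the 12 largest falls Tcap, a sarcomere protein of striated muscle, had a deposited FPKM of 15.7, 8.23, 12.7 and 34.1 with saline and 1.77, 1.70, 3.24 and 6.98 with bleomycin. The scaled change was -4.43 ± 0.33 (SE, adjusted p = 1.9e-05), without overlap on either scale. The cardiac actin Actc1 had a deposited FPKM of 30.8, 44.3, 60.1 and 114 with saline and 14.8, 83.3, 26.8 and 81.7 with bleomycin, with overlapping groups, and a scaled change of -3.31 ± 0.59 (SE, adjusted p = 0.0011). Its sequence is close to those of Acta2 and Actg2, so short reads can be split between them.

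Some of these falls held similar values over the saline mice, as the receptor median did. The ubiquitin protease Usp29 had a deposited FPKM of 20.003, 23.4, 23.1 and 18.02 with saline and 4.63, 9.54, 3.26 and 1.998 with bleomycin. The receptor kinase Grk4 had 23.2, 25.5, 24.6 and 23.3 with saline and 6.44, 14.0, 6.18 and 3.73 with bleomycin, and Tmem72, a membrane protein, had 23.0, 23.7, 23.3 and 22.4 with saline and 9.94, 15.2, 5.49 and 3.28 with bleomycin. Among the bleomycin mice, mouse 6 was the highest in these 3, as it was for the receptor median. Over the 12 largest falls it was the highest in 8, and in the other 4 it was mouse 5, 7 or 8. The developmental factor Six2 had a deposited FPKM of 19.7, 20.8, 19.1 and 18.3 with saline and 9.62, 14.0, 6.997 and 5.23 with bleomycin and was also highest in mouse 6. Their scaled changes lay between -4.49 and -3.75, and all 189 tested receptor genes changed by -5.09 to -0.97. Whether these falls reflect reads outside expressed genes was not tested. The ubiquitin ligase Mid1, which spans the edge of the region that the X and Y chromosomes share, changed by -4.38 ± 0.45 (SE, adjusted p = 4.0e-05).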

How the data were processed

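RNA of tdTomato-positive cells sorted from the left lung lobe was read by SmartSeq2 in 16 mice, of which the 8 Acta2-tdT mice were analysed. The authors deposited FPKM for each mouse, made with TopHat2 2.1.1, Bowtie2 and Cufflinks 2.1.1 on build mm10 (GRCm38). FPKM hold no read counts, and no counting intervals are given. The fragments per mouse are an estimate from the upper confidence bounds that Cufflinks gave. Entries of 1 gene were summed, and 14 genes without an accepted Cufflinks status in all 8 mice were left out. Genes that reached an FPKM of 1 in 4 or more of the 8 mice were tested (12524, of which 9265 protein-coding).

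Scaled FPKM are each mouse's FPKM divided by its nuclear protein-coding sum and multiplied by the geometric mean of the 8 sums. limma 3.58.1 (R 4.3.3, with a trended prior, tested on simulated data) was fitted to log2(FPKM + 1), with Benjamini-Hochberg adjustment over the 12524 genes. Single values were compared by exact permutation over 70 labellings.

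Named genes are Acta2 and Pdgfra, from each list the 2 members with the highest mean FPKM and the largest called rise and fall, and the 12 largest rises and falls (6 falls on the deposited FPKM) among called genes whose groups did not overlap and whose higher group averaged at least 10. Predicted, clone-named and receptor genes were passed over, and 1 gene that the rule gives is not reported here. Of 83 genes followed in all alternatives, 73 come from this rule. The other 10, among them Tagln, Cnn1, Tpm2 and Lmod1, and the cell type markers given by level were chosen after their values were seen. Members and lists were chosen with earlier results of these data known. Alternatives were other filters, pseudocounts, scalings, variance models and gene summaries, a fit over all 16 mice and leaving out each mouse.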

Additional observations from a re-analysis of the deposited data

Results flagged for a closer look

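Lmod1 in bleomycin mouse 7 stood apart from its group: its deposited FPKM was 2.72, the lowest of the 4, against 5.80 to 5.98 in the other 3. On log2(FPKM + 1) the gap to the nearest mouse was 0.958 of the range of the group, above Dixon's critical value for 4 values. It was the 1 such case in 166 groups of 4 mice checked, and by chance about 1 in 20 groups would stand apart in this way. The cause was not tested.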

How the results depend on the processing

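Relative to the protein-coding total, 22 alternatives were computed for 83 genes and 40 lists, the receptor genes included, and 17 on the deposited FPKM. For 8 of the genes the requirement of a mean FPKM of at least 5 gave no value. Of 1818 values for the genes, 1755 kept their direction and their side of the threshold, 50 lost the threshold, 4 gained it and 9 changed sign. Of 880 medians of the lists, 167 moved by more than the spread between mice, and 9 more did so with a change of sign. Changes of sign within that spread are not in these counts. On the scaled FPKM 6132 genes were higher and 832 lower with the total over all genes, 5270 and 939 with quantile normalization, 4478 higher with the receptor median subtracted, and 1463 higher in the fit over all 16 mice. Without a filter 6785 were lower, and with a mean FPKM of at least 5 required 209 were lower. On the deposited FPKM that requirement gave 4175 higher and 53 lower, and no filter gave 1724 lower. Leaving out 1 mouse gave 8171 to 8344 higher and 373 to 479 lower on the deposited FPKM, and 2326 to 2946 higher and 1300 to 1505 lower on the scaled FPKM.

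Signs changed as follows, where for medians only moves beyond the spread between mice are listed. The airway and haemoglobin medians also changed sign when single mice were left out, as given above. The airway median was 0.80 with the total over all genes, and the haemoglobin median was -0.29 with no filter. Beyond that spread for medians, the total over all genes gave 0.13 for endothelial markers and 0.28 for clock genes. The log2 fold change was 0.82 for Pdgfrb, 0.40 for Tpm2, 0.65 for Tagln and 0.088 for Fos with that total. With quantile normalization it was 0.10 for Pdgfrb, 0.59 for Tpm2 and 0.15 for the median of clock genes, and with median-ratio scaling it was 0.019 for Pdgfrb. Acta2 was at -0.11 without the 50 largest genes, where the contractile list had a median of -0.076, and at -0.0046 with the receptor median subtracted. With no filter, medians were -0.27 for contractile genes, -0.24 for alveolar fibroblast markers, -0.049 for mesothelial markers and -0.17 for Notch, Wnt and BMP genes, and with a mean FPKM of at least 5 required the clock genes had 0.55. Alternatives that left out a filter or mice changed the genes or samples fitted, and for the others the cause was not tested. No paired analysis was possible because the saline mice are numbered 1 to 4 and the bleomycin mice 5 to 8, so the groups share no numbers. FPKM hold no counts, which limits what can be said of genes near the level of the receptor genes.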
